A study of Mus musculus with 8 samples.

Results

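Metallothionein and zinc response genes were examined as a set of 5 named genes, Mt1, Mt2, Mtf1, Slc30a1 and Slc39a14, out of 55335 genes in the deposited tables. The genes were taken by symbol. They were selected on their ratio between these same libraries and on their known roles, so the ratios are a description and carry no test. RNA came from B16 tumours of CD36 KO mice and of wild-type C57BL/6 mice after a sort for CD8 T cells. The B16 line derives from a mouse melanoma, and animals of both genotypes had received B16 cells intravenously 14 days before collection. The labels give C57BL/6 as the strain background of both genotypes. How Cd36, which encodes a fatty acid and lipoprotein receptor, was deleted and how many animals went into each library are not stated in the labels.

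The 8 deposited samples carry 1 library tag per genotype and lane tags 1 to 4 in their titles, and are read here as 4 sequencing lanes of 1 library each, called CD36_KO and WT. Lane totals were 2569962 to 2611740 estimated counts for CD36_KO and 2497048 to 2538468 for WT. Because lanes resample 1 library, no difference between genotypes has a replicate check. SDs over lanes and 95% exact counting intervals cover counting error only, and no molecular identifiers are described. The targeted gene Cd36 was lower in CD36_KO but not absent, with 77 to 107 counts per CD36_KO lane and 287 to 307 per WT lane; which part of the gene was deleted is not stated, so counts of the whole gene are a limited check of the label. The sorted label was checked against marker genes. All 8 CD8 T cell markers were detected and summed to 546 to 599 TPM (transcripts per 1000000) per CD36_KO lane and 111 to 125 TPM per WT lane. The 10 melanoma markers summed to 331 to 342 TPM in CD36_KO lanes and 1006 to 1078 TPM in WT lanes, so melanoma transcripts exceeded the CD8 markers in the WT library. Macrophage markers exceeded the CD8 markers in both libraries, with 1949 to 2007 TPM in CD36_KO lanes and 1878 to 1990 TPM in WT lanes. Hepatocyte markers summed to 329 to 340 TPM in CD36_KO lanes and 32.3 to 44.7 TPM in WT lanes.

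Metallothioneins are small cysteine-rich proteins that bind zinc and copper and buffer their free concentration in the cell. The zinc finger protein MTF1 senses zinc and binds metal response elements, short DNA motifs in the promoters of Mt1, Mt2 and the zinc exporter gene Slc30a1. Mt1 and Mt2 are also known to be induced by cadmium, glucocorticoids and oxidative stress, and both are expressed in many tissues, liver among them. Slc39a14 encodes ZIP14, a carrier that brings zinc, manganese and iron into cells and that is induced in liver during inflammation.

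The promoter sequences are shown because Mt1, Mt2 and Slc30a1 are all known for regulation through metal response elements, yet had different ratios between the libraries. Sequences are from RefSeq on GRCm38.p6, plus strand, 5′ to 3′, and end before the first base that either RefSeq or GENCODE release M21 places in the gene. Capitals mark the core of the metal response element, TGCACNC or TGCGCNC, on either strand. The windows are chr8:94172368-94172617 for Mt2, chr8:94178839-94179081 for Mt1 and chr1:191906531-191906766 for Slc30a1.
Mt2: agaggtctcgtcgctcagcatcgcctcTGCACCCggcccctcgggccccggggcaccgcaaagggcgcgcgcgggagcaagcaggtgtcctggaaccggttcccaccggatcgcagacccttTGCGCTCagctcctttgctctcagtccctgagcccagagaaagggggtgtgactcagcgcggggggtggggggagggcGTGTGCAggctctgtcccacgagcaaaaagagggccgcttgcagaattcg
Mt1: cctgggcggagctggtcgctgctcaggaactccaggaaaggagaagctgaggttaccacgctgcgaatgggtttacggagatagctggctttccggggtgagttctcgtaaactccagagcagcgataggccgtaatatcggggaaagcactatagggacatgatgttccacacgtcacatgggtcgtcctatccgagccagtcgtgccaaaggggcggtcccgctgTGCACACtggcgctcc
Slc30a1: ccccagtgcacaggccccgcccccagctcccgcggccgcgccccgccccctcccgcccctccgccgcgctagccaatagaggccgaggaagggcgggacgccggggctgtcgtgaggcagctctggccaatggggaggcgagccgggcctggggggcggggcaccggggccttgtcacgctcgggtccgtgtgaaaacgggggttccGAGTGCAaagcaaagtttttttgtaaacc

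Over the full RefSeq window of 300 bases, 250 before the RefSeq start and 50 after it, the Mt2 promoter held 4 matches, the Mt1 promoter 3, the Slc30a1 promoter 2 and the Mtf1 promoter 0. The matches did not overlap one another. Among 32851 RefSeq promoter windows of this length, 25.7% held at least 1 match, 7.11% at least 2 and 1.97% at least 3. In the Mt2 sequence the capitals began 223, 128 and 50 bases before the RefSeq start, and the fourth match, GTGCGCA, lay at chr8:94172622-94172628, which is after the RefSeq start and before the GENCODE start. In the Mt1 window the printed match began 23 bases before the RefSeq start. The other Mt1 matches, TGCACTC at chr8:94179091-94179097 and TGCGCTC at chr8:94179109-94179115, lay after both annotated starts. The second Slc30a1 match, GAGCGCA, lay at chr1:191906811-191906817, also after both annotated starts. These are letter matches and not measured binding sites.

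The metallothionein genes were the members that differed most, and both were lower in the CD36_KO library. Mt2 stood at 10.4% of its WT level (95% counting interval 7.88% to 13.5%) and Mt1 at 18.4% (15.9% to 21.4%). These values depend on the scale: in mean TPM, Mt2 stood at 16.6% and Mt1 at 29.3% of WT, and the log2 ratios on log2(TPM + 1) were -2.50 for Mt2 and -1.74 for Mt1, still past 2-fold. The importer gene Slc39a14 stood at 44.0% of its WT level (38.0% to 50.8%). Mtf1, which encodes the zinc sensor, and the exporter gene Slc30a1 stayed within 2-fold. By the rule used here a gene was measured at a mean of at least 5 CPM (counts per 1000000 of the library size scaled by trimmed mean of M values, TMM). It was called lower or higher at a ratio of at least 2-fold with a counting interval that left out no difference. All 5 members were measured, of which 3 were lower, 0 higher and 2 between, while 10.8% of the 12177 measured genes were called lower and 6.50% higher, 17.3% in either direction. The members were chosen with this contrast known, so nothing is read from their count.

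Mt2 (ENSMUSG00000031762.7; GRCm38 chromosome 8, 94172664 to 94173568, plus strand) had 12, 22, 13 and 16 counts in the CD36_KO lanes, against 130, 118, 140.0 and 125 in the WT lanes. Every CD36_KO lane lay far below every WT lane. Summed over lanes it had 63 counts in CD36_KO and 513 in WT, or 5.68 CPM and 54.5 CPM, a log2 ratio of -3.26 (interval -3.67 to -2.88). Among the 6493 protein-coding genes that averaged 20 CPM or more, it had the lowest log2 ratio, and among all 12177 measured genes it ranked 49 from the lowest.

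Mt1 (ENSMUSG00000031765.8; chromosome 8, 94179082 to 94180327, plus strand) had 60, 54, 54 and 50 counts in the CD36_KO lanes, against 226, 260, 269 and 247 in the WT lanes. The lanes did not overlap here either. The library sums were 218 in CD36_KO and 1002 in WT, a log2 ratio of -2.44 (-2.66 to -2.23), and Mt1 ranked 23 from the lowest among the same protein-coding genes and 113 among all measured genes. Per length, Mt1 averaged 35.3 ± 2.68 TPM in CD36_KO and 121 ± 11.1 TPM in WT (SD over 4 lanes of 1 library). This level ranked 1088 among the measured genes in CD36_KO and 278 in WT.

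**Figure D1:**
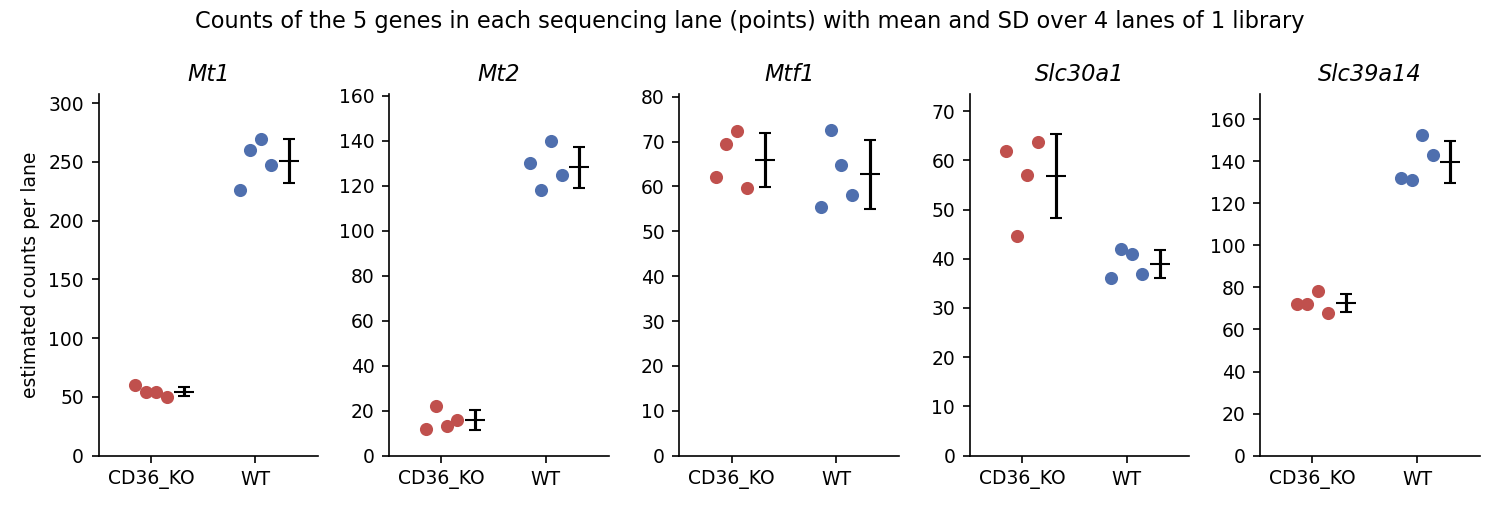
Estimated counts of the 5 genes in each sequencing lane (points), with the mean and SD over the 4 lanes of 1 library beside them; every y axis starts at 0. For Mt1, Mt2 and Slc39a14 all CD36_KO lanes lie below all WT lanes, for Slc30a1 they lie above them (44.6 to 63.8 counts against 36.2 to 41.9), and for Mtf1 the lanes overlap. The Slc30a1 lanes overlap in TMM-scaled CPM and in TPM, but not when scaled by lane totals alone.

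The metallothionein pair also differed in its internal proportion. Mt2 made up 22.4% of the summed Mt1 and Mt2 counts in the CD36_KO library (interval 17.7% to 27.8%) and 33.9% in the WT library (31.5% to 36.3%). This share does not depend on how the libraries are scaled to each other. Its range over lanes was 16.7% to 28.9% in CD36_KO and 31.2% to 36.5% in WT, so neither the lanes nor the intervals overlapped. There were 3.46 Mt1 counts per Mt2 count in CD36_KO and 1.95 in WT. On the TPM scale the share was 25.2% in CD36_KO and 37.3% in WT.

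By transcript, nearly all Mt1 counts were assigned to the spliced form of 3 exons and 549 bases, Mt1-201, with 202.7 counts in CD36_KO and 907 in WT. A single-exon form of 1085 bases, Mt1-202, which runs through the introns, had 14.9 counts in CD36_KO and 82.7 in WT. It took 6.85% of the gene's estimate in CD36_KO and 8.25% in WT, and both forms were lower in CD36_KO. All Mt2 counts went to Mt2-201, of 511 bases. Mt2 overlaps the antisense gene Gm45774, which had 5 counts in CD36_KO and 9 in WT. No strand setting is stated, so reads of the overlapping genes cannot be told apart by strand. The brain-type metallothionein gene Mt3 had 0 counts in CD36_KO and 4 in WT, and the epithelial gene Mt4 had 2 in CD36_KO and 0 in WT, too few for any comparison.

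Metallothionein transcripts are short, and short transcripts were lower in the CD36_KO library as a class. The effective lengths imply mean fragments of 194 to 195 bases in the CD36_KO lanes and 160 to 161 bases in the WT lanes. Mt2-201 had an effective length of 318 bases in CD36_KO and 352 in WT. The 905 measured protein-coding genes with an effective length under 1000 bases had a median log2 ratio of -0.41, against -0.15 for the 10127 longer ones. Relative to that short-gene median, a comparison chosen after seeing the data, Mt2 stood at -2.86 and Mt1 at -2.03. The part of transcript length in the remaining difference was not tested.

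Other measured genes of the same stretch of chromosome 8 stayed within 2-fold with TMM. Mt2 and Mt1 lie 5514 bases apart. Within 250 kb of the pair, 8 other genes were measured, none of them higher or lower and 8 between. Over all measured genes 17.3% were called in either direction, so nothing is read from this count. The 8 neighbours had a median log2 ratio of -0.37. The nearest were Bbs2, a gene of the ciliary BBSome complex, at -0.12 (interval -0.66 to 0.42) and Nup93, a nuclear pore gene, at -0.62 (-0.88 to -0.37). Gnao1, which encodes a G protein alpha subunit, was the lowest at -0.94, and the noncoding gene 9330175E14Rik the highest at 0.87.

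**Figure D2:**
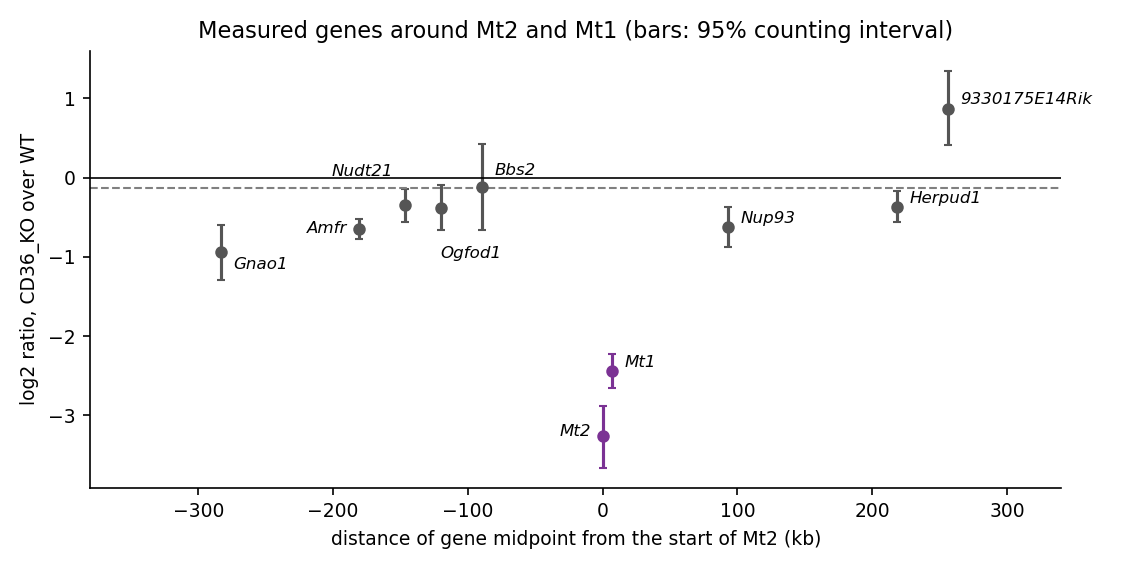
Log2 ratio of TMM-scaled CPM, CD36_KO over WT, for measured genes within 250 kb of the metallothionein pair, against the distance of the gene's midpoint from the start of Mt2 in kb. Bars are 95% counting intervals and the dashed line is the median of all measured genes, -0.13; Mt2 (-3.26) and Mt1 (-2.44) lie below all 8 neighbours, which run from -0.94 to 0.87.

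Mtf1 (ENSMUSG00000028890.13; chromosome 4, 124802104 to 124849800, plus strand) did not share the low values of the metallothionein genes. It had 62.0, 69.5, 72.4 and 59.6 counts in the CD36_KO lanes, against 55.4, 72.5, 64.7 and 58.1 in the WT lanes. The lanes overlapped. The sums were 264 counts in CD36_KO and 251 in WT, a log2 ratio of -0.17 (-0.42 to 0.09). The direction depended on the scale, since the log2 ratio was 0.03 with total counts and 0.56 on log2(TPM + 1). Over all measured genes the median was -0.13 with TMM, 0.06 with total counts and 0.37 on log2(TPM + 1). Set against these medians, Mtf1 stood at -0.03 with TMM and 0.20 with TPM. Most of its estimated counts were assigned to coding transcripts of 7631 and 7554 bases. In TPM the largest form was Mtf1-204, annotated as a retained intron, of 781 bases. It stood at 2.20 TPM in CD36_KO and 1.42 TPM in WT, from 21.5 and 17.8 counts, so the TPM ratio rests largely on few counts.

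Slc30a1 (ENSMUSG00000037434.7; chromosome 1, 191906767 to 191913247, plus strand), whose product ZnT1 exports zinc through the plasma membrane, had more counts in CD36_KO. It had 61.8, 44.6, 57.1 and 63.8 counts in the CD36_KO lanes, against 36.2, 41.9, 41.0 and 37.0 in the WT lanes. All CD36_KO lanes were above all WT lanes in unscaled counts, but the lanes overlapped in TMM-scaled CPM (16.2 to 23.2 in CD36_KO and 15.3 to 18.0 in WT) and in TPM. The sums of 227 counts in CD36_KO and 156 in WT gave a log2 ratio of 0.30 with an interval of 0.0025 to 0.61, short of 2-fold. On log2(TPM + 1) it was 0.55. Per length it was the least abundant member, at 3.31 ± 0.93 TPM in CD36_KO and 1.95 ± 0.79 TPM in WT.

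Slc39a14 (ENSMUSG00000022094.15; chromosome 14, 70303469 to 70351425, minus strand) had 72.1, 71.9, 78.3 and 67.8 counts in the CD36_KO lanes, against 132, 131, 152 and 143 in the WT lanes. The lanes did not overlap in counts or TMM-scaled CPM, but did in TPM (4.96 to 13.3 in CD36_KO and 7.71 to 10.2 in WT). The sums were 290 in CD36_KO and 559 in WT, a log2 ratio of -1.19 (-1.39 to -0.98). The call of 2-fold ended on other scales, with a log2 ratio of -0.99 with total counts and -0.16 on log2(TPM + 1). Summed TPM was 7.93 ± 3.74 in CD36_KO and 9.01 ± 1.26 in WT, and part of it came from 5 annotated transcripts under 500 bases. These short transcripts ranged from 0 to 9.62 TPM over the CD36_KO lanes and from 0.39 to 4.14 TPM over the WT lanes. The 3 transcripts with all 10 exons stood at 3.86 ± 0.49 TPM in CD36_KO and 5.08 ± 0.61 TPM in WT.

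The 10-exon transcripts of Slc39a14 hold 1 of a pair of alternative exons of equal length, 170 bases. Slc39a14-202 holds the downstream exon (chr14:70313601-70313770), and Slc39a14-201 and Slc39a14-210 hold the upstream exon (chr14:70315664-70315833). The upstream-exon transcripts had 38.7 estimated counts in CD36_KO and 7.24 in WT, whereas the downstream-exon transcript had 207 in CD36_KO and 473 in WT. The upstream exon thus took 15.7% of the 10-exon estimate in CD36_KO (10.8% to 17.8% over lanes) and 1.51% in WT (0% to 4.22%). The lanes did not overlap, and the lower total in CD36_KO lay in the downstream-exon form. These estimates divide shared reads, and the forms also differ in their last exon, which is 3344 bases long in Slc39a14-202 and 516 in Slc39a14-201, so they are less certain than the gene total.

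**Figure D3:**
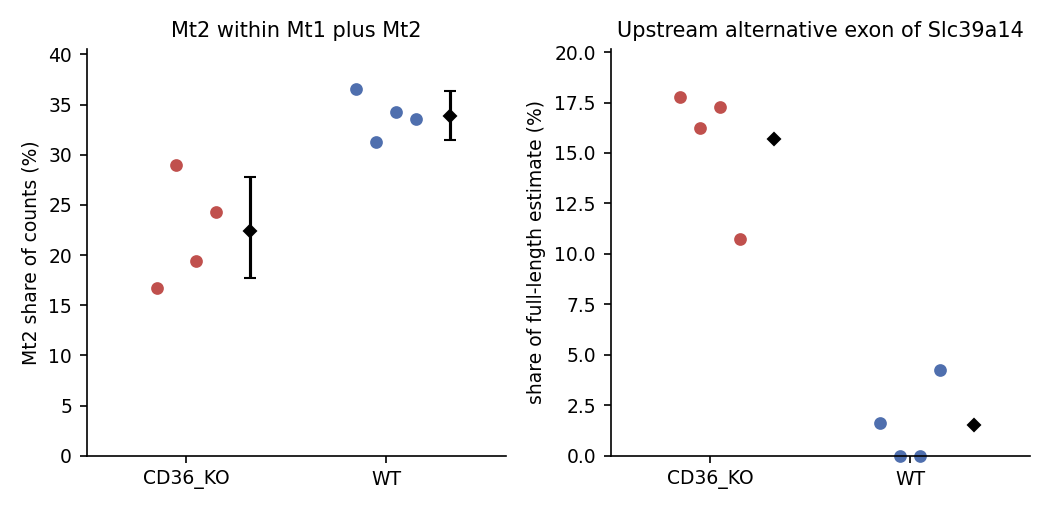
Left, Mt2 share of Mt1 plus Mt2 counts in percent; right, share of the upstream alternative exon in the estimate of the 10-exon Slc39a14 transcripts in percent. Points are lanes, diamonds are the summed library with its 95% counting interval on the left only; the CD36_KO lanes lie below the WT lanes on the left (22.4% against 33.9% summed) and above them on the right (15.7% against 1.51%).

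Per length, the order of the members was Mt1, Mt2, Slc39a14, Mtf1 and Slc30a1 in both libraries. In CD36_KO, Mt2 stood at 11.9 ± 3.36 TPM, Slc39a14 at 7.93 ± 3.74 TPM and Mtf1 at 5.62 ± 2.71 TPM. The range of mean ± SD of Slc39a14 overlapped those of Mt2, Mtf1 and Slc30a1 there, and that of Mtf1 overlapped Slc30a1 but not Mt2. In WT no such ranges overlapped, with Mt2 at 71.8 ± 4.58 TPM, Slc39a14 at 9.01 ± 1.26 TPM and Mtf1 at 3.49 ± 0.46 TPM.

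Among zinc carriers, 3 importer genes and no exporter gene were called lower with TMM; the difference between the families was not tested. The importer calls depended on the scale, with 1 lower with total counts, Slc39a8, and 0 on log2(TPM + 1). Over all measured genes 10.8% were lower with TMM. On log2(TPM + 1) 2.70% of them stood at -1 or less and 12.3% at 1 or more. Of 14 importer genes (ZIP, Slc39a) 11 were measured, with 3 lower, 0 higher and 8 between. The lower ones include the member Slc39a14, which was chosen with this contrast known. The median log2 ratio of the importer genes was -0.73 beside -0.13 for all measured genes. The values ran from -1.46 to -0.16 with TMM, but the list median was -0.01 on log2(TPM + 1), where members lay on both sides of 0. Slc39a8, which encodes the zinc and manganese importer ZIP8, had 83 counts in CD36_KO and 194 in WT (-1.46, interval -1.85 to -1.09). Slc39a1, the most abundant importer gene, had 639 in CD36_KO and 1185 in WT (-1.13, -1.27 to -0.99). Of 10 exporter genes (ZnT, Slc30a) 6 were measured, and all were between, with a median of -0.11 and a range of -0.47 to 0.30. On log2(TPM + 1) the exporter median was 0.60 and Slc30a7, a Golgi zinc carrier gene, passed 2-fold at 1.20. Slc30a9, the most abundant of them, stood at 21.7 ± 2.46 TPM in CD36_KO and 13.0 ± 2.97 TPM in WT, with a log2 ratio of -0.07 in scaled CPM.

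Genes reported elsewhere as MTF1 targets were divided. Of 12 such genes 9 were measured, with 4 lower, 0 higher and 5 between (median -0.76). On log2(TPM + 1) the median was -0.01 and 3 were lower, since Csrp1 stood at -0.63. Over all measured genes 10.8% were lower with TMM, and 2.70% stood at -1 or less on log2(TPM + 1). The list holds Mt1, Mt2 and Slc30a1, members chosen with this contrast known, so nothing is read from its counts. Beside Mt1 and Mt2, the lower ones were Ndrg1, a stress and hypoxia response gene, with 184 counts in CD36_KO and 645 in WT (-2.05, -2.29 to -1.81), and Csrp1, a LIM domain gene, with 666 in CD36_KO and 1303 in WT (-1.21, -1.34 to -1.07). Gclc, the catalytic subunit of glutamate cysteine ligase, stood at 0.13 (-0.12 to 0.38). The selenoprotein gene Selenow stood at -0.11 (-0.33 to 0.11), and the iron exporter gene Slc40a1 at 0.40 (0.07 to 0.74). Slc39a10, an importer gene that MTF1 is known to repress, stood at -0.76 (-0.94 to -0.58). Its value is also the list median, so that median does not stand for induced targets alone.

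Copper handling genes were all between. Of 12 genes 10 were measured, with a median of -0.48 and a range of -0.94 to 0.34, while 17.3% of all measured genes were called in either direction. On log2(TPM + 1) their median stood at 0.10. The copper importer gene Slc31a1 (-0.94) and the copper pump gene Atp7a (-0.91) were the lowest, and Cp, which encodes the plasma copper oxidase ceruloplasmin, was the highest at 0.34. Sod1, the most abundant, encodes the copper and zinc superoxide dismutase and stood at 49.2 ± 2.38 TPM in CD36_KO and 48.2 ± 7.51 TPM in WT. Manganese carrier genes had 2 of 6 measured genes lower, 0 higher and 4 between (median -0.49), beside 10.8% lower over all measured genes. The lower ones were Slc39a8 and Slc39a14, of which Slc39a14 was chosen with this contrast known. On log2(TPM + 1) neither was past 2-fold, at -0.64 for Slc39a8 and -0.16 for Slc39a14, and the list median was -0.0055. The most abundant of these, the phagosomal metal carrier gene Slc11a1, stood at -0.52 (-0.68 to -0.36).

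**Figure D4:**
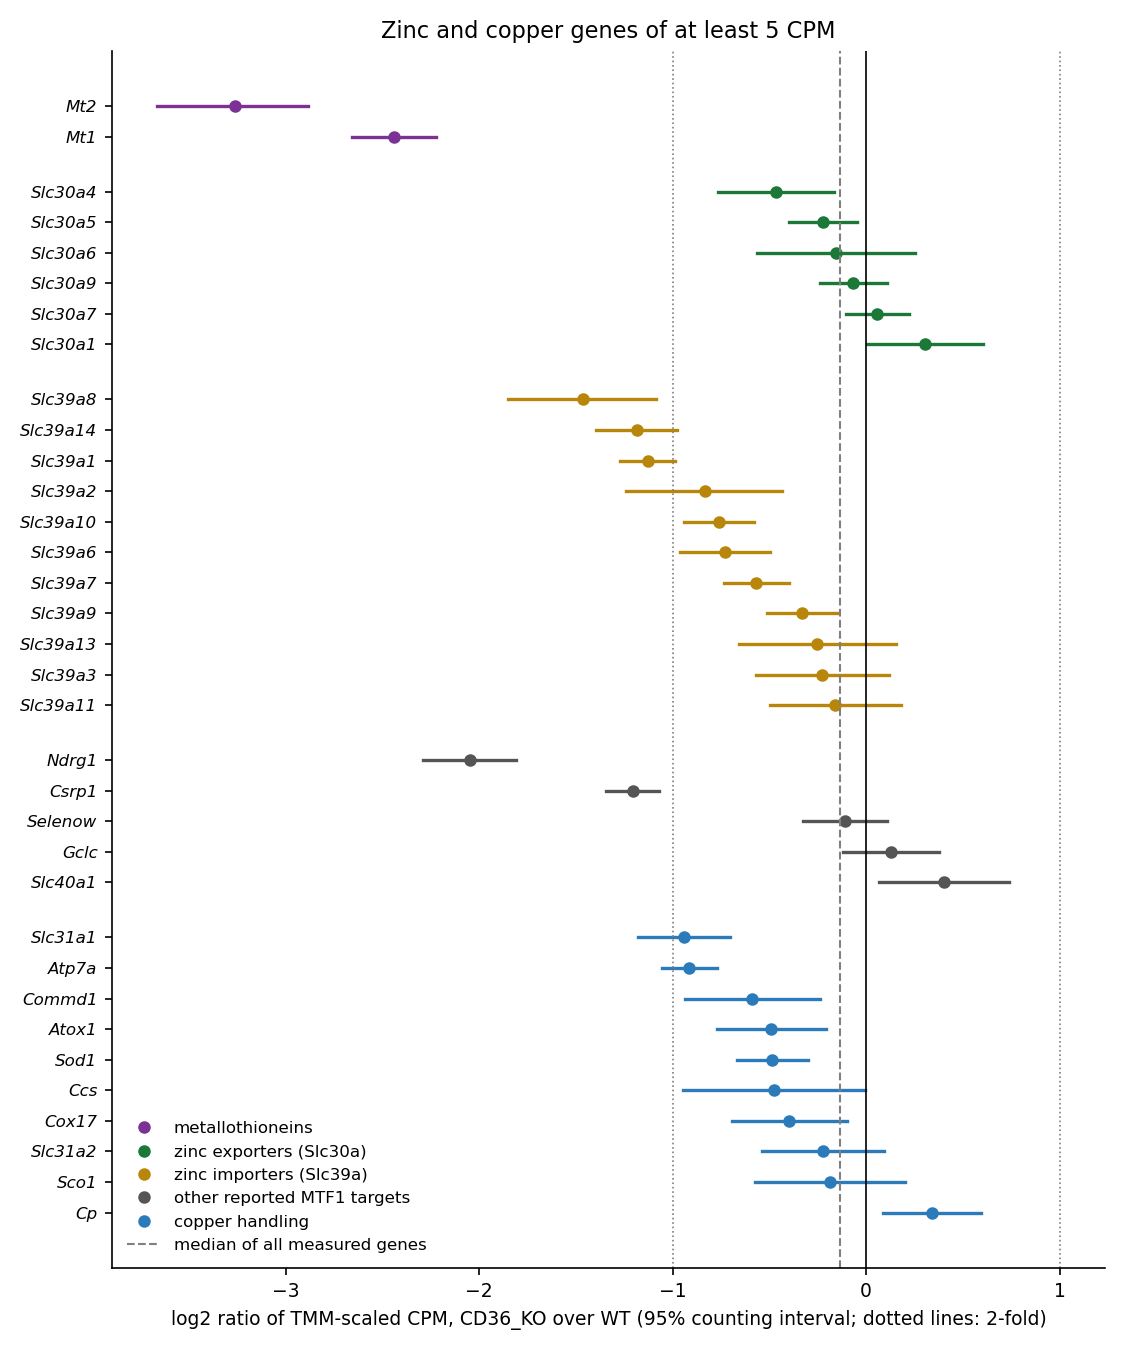
Log2 ratio of TMM-scaled CPM, CD36_KO over WT, for measured zinc and copper genes, coloured by list and sorted within it, with 95% counting intervals. The dashed line is the median of all measured genes (-0.13) and the dotted lines are 2-fold; Mt2 and Mt1 lie lowest of all genes shown, 3 importer genes and the MTF1 targets Ndrg1 and Csrp1 also pass 2-fold, and no exporter or copper gene does on this scale.

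Glucocorticoids are known inducers of Mt1 and Mt2, so a list of glucocorticoid response genes was set beside them. Of 12 genes 11 were measured, of which 4 were lower, 0 higher and 7 between with TMM (median -0.40). With total counts only Fkbp5 was lower, and on log2(TPM + 1) none was, with a median of 0.22. Over all measured genes 10.8% were lower with TMM, and 2.70% stood at -1 or less on log2(TPM + 1). Fkbp5, which encodes a chaperone of the glucocorticoid receptor, had 350 counts in CD36_KO and 857 in WT (-1.53, -1.71 to -1.35; -0.94 on log2(TPM + 1)). Ddit4 (-1.18), Zbtb16 (-1.14) and Klf9 (-1.06) were the other lower members. Tsc22d3, which encodes the glucocorticoid-induced leucine zipper protein, had 1893 in CD36_KO and 1423 in WT (0.17, 0.07 to 0.27). The receptor gene Nr3c1 stood at 0.25 (0.12 to 0.37), and Sgk1, the most abundant list member, at -0.26.

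Markers of several cell types also differed between the libraries, in both directions, where 10.8% of all measured genes were lower and 6.50% higher. All 10 melanoma markers were lower in CD36_KO, with a median log2 ratio of -2.33 and a range of -3.26 to -1.83. Mt1 lay within that range, and Mt2 at its lower end with the same ratio as Gpr143. This melanosome receptor gene had 14 counts in CD36_KO and 114 in WT, with an interval of -4.18 to -2.46. The next lowest melanoma marker was Sox10 at -2.62, above the interval of Mt2 (-3.67 to -2.88). Of 7 fibroblast markers 6 were measured and 5 were lower (median -1.76); they summed to 42.5 to 52.3 TPM in CD36_KO lanes and 118 to 136 TPM in WT lanes. Macrophage markers had 2 of 9 lower, Arg1 and Adgre1, and 7 between (median -0.42). With TMM all 9 ratios were below 0, from -2.62 to -0.04, while their median on log2(TPM + 1) was 0.16. They summed to 1949 to 2007 TPM in CD36_KO lanes and 1878 to 1990 TPM in WT lanes. Most of each sum was Lyz2, at 1520 TPM in CD36_KO and 1316 TPM in WT, so the sums say little about the other markers. Hepatocyte markers, in contrast, were all higher, 10 of 10, with a median of 2.70 and sums of 329 to 340 TPM in CD36_KO lanes and 32.3 to 44.7 TPM in WT lanes. Liver also expresses metallothionein genes, and the part of hepatocyte transcripts in their ratios was not tested. All 8 CD8 T cell markers were higher (median 1.80). None of the markers of these lists was at 0 counts in either library. In these bulk libraries fewer cells of a type and less RNA per cell cannot be told apart, and the part of cell composition in the metallothionein ratios was not tested.

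The remaining markers were higher or between. All 6 B cell markers were higher (median 2.64), summing to 32.5 to 37.8 TPM in CD36_KO lanes and 3.04 to 5.81 TPM in WT lanes. All 5 measured neutrophil markers were higher (median 1.87), and lung epithelium markers had 3 of 5 measured members higher (median 1.06). All 6 endothelial markers were between (median 0.46).

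The protein-coding genes with log2 ratios nearest to those of the metallothionein genes were found among 6489 genes of at least 20 CPM, a likeness over 2 libraries only. Nearest to Mt1 were Aebp1, a matrix-associated protein gene, at -2.44, Flrt2, a cell adhesion gene, at -2.43 and Mlph, a melanosome transport gene, at -2.46. Among those nearest to Mt2 were Gm10800 at -3.14 and Lars2, which encodes mitochondrial leucyl-tRNA synthetase, at -2.95. Mt2 had the lowest ratio of these protein-coding genes, so its nearest genes all lie above it. They were less close, with distances of 0.12 for Gm10800 and 0.31 for Lars2, against 0.0007 to 0.023 for Mt1. Which part of Lars2 took its counts, 1713 in CD36_KO and 11215 in WT, was not examined.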

How the data were processed

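The authors deposited 1 transcript table per sequencing lane. The submitters' processing notes name kallisto, DESeq2 and build GRCm38.p6, with no versions; annotation release, strand setting and read layout are not stated there. Per the file headers, the deposited values are estimated counts, not normalised and not all whole (33.8% to 35.4% of values per lane were not), and TPM, which the authors' run scaled for effective length and lane total. Effective lengths, per the file headers, served only to describe fragment and transcript length.

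Estimated counts of 142351 transcripts were summed per gene and over the 4 lanes of a genotype and rounded. Lanes of 1 library differed by little more than sampling noise: chi-square per degree of freedom was 1.26 over the CD36_KO lanes and 1.29 over the WT lanes, and 0.19 to 1.49 for the 5 members. TMM factors, computed with edgeR 4.0.16 (R 4.3.3), came to 1.07 for CD36_KO and 0.934 for WT. Ratios are CD36_KO over WT of TMM-scaled CPM, with exact Clopper-Pearson 95% intervals (scipy 1.17.1) on how a gene's counts divide between the libraries. With 1 library per genotype no p-value is given. The ratio, its interval and the calling rule were tested on simulated counts with known library totals and counting error only. TMM scaling, the sums over transcripts and lanes, and TPM were not part of that test. Coordinates are those of GENCODE release M21 (GRCm38), which holds all 5 members; promoters are RefSeq's.

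The members and the 8 gene lists and 9 marker lists were chosen with earlier results of these data known. Named genes are the members, list genes past 2-fold, the most abundant gene of each list, and the 3 genes nearest in ratio to Mt1 and to Mt2, of which 1 is not reported here; other list genes named for their role and all chromosome 8 neighbours were chosen after their values were seen. Alternatives were other scalings, TPM, coding transcripts only, other CPM minimums and each lane left out.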

Additional observations from a re-analysis of the deposited data

How the results depend on the processing

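With edgeR's RLE factors, coding transcripts only, and each lane left out in turn, every member kept its direction and its side of the 2-fold rule, and 3 members remained lower and 0 higher. Leaving out lanes gave ranges of -3.46 to -3.15 for Mt2, -2.48 to -2.35 for Mt1, -1.21 to -1.08 for Slc39a14, -0.21 to -0.02 for Mtf1 and 0.24 to 0.41 for Slc30a1. With total counts 2 members were lower, since Slc39a14 stood at -0.99, and Mtf1 turned to 0.03. On log2(TPM + 1) 2 members were lower, and the log2 ratios were -2.50 for Mt2, -1.74 for Mt1, -0.16 for Slc39a14 and 0.56 for Mtf1. On log2(TPM + 0.1) they were -2.58, -1.77, -0.18 and 0.67, and Slc30a1 stood at 0.74. Relative to short protein-coding genes, added after seeing the data, Mt2 was -2.86 and Mt1 -2.03. The Mt2 share in WT was 37.3% in TPM. Over the 60 measured genes of the lists, 12 were lower with TMM, 7 with total counts and 4 with either TPM scale. Of these 60 genes, 7 were higher with TMM, 8 with total counts and 9 with either TPM scale. The 12 lower ones with TMM include the members Mt1, Mt2 and Slc39a14. Other CPM minimums change which list genes are counted, so their counts are not out of 60. Over list genes of at least 20 CPM, 1 was higher and 10 lower with TMM. With no filter 12 were higher and 15 lower. No share of all genes is given for these minimums, total counts or log2(TPM + 0.1), so nothing is read from the counts there. Over all measured genes 10.8% were lower and 6.50% higher with TMM. On log2(TPM + 1) 2.70% of them stood at -1 or less and 12.3% at 1 or more. Between TMM and total counts every log2 ratio shifts by the same amount. The median of all measured genes was -0.13 with TMM, 0.06 with total counts and 0.37 on log2(TPM + 1). The cause of the further shift with TPM was not tested. No paired analysis was possible because lanes of 1 library are not replicates and no result comes from a test. With 63 counts of Mt2 in CD36_KO, its counting interval with TMM ran from 7.88% to 13.5% of WT. That interval covers counting error only and does not bound the genotype difference. In mean TPM Mt2 stood at 16.6% of WT, outside it.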

Other observations

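Slc39a14 and the metallothionein genes are known to be induced in liver during the acute phase response, so a list of acute phase genes was set beside them. Of 17 acute phase genes 11 were measured, of which 7 were higher in CD36_KO, 1 lower and 3 between, with a median log2 ratio of 1.51. Over all measured genes 6.50% were higher and 10.8% lower. The fibrinogen genes Fga (2.44), Fgb (2.69) and Fgg (2.80), the haem binder gene Hpx (2.40), Itih4 (2.38), Orm2 (1.51) and the haptoglobin gene Hp (1.04) were the higher members. These are products of the liver, and hepatocyte markers were higher in the same library, 10 of 10, with Fgb counted in both lists. Acute phase induction and more hepatocyte transcripts cannot be told apart here. Saa3, a serum amyloid gene known to be expressed outside the liver and by macrophages, had 709 counts in CD36_KO and 2946 in WT (-2.29, interval -2.41 to -2.17). Stat3 (-0.58) and Socs3 (-0.73), signalling genes of interleukin-6, were between. Hamp, the gene of the liver iron hormone hepcidin, had 33 counts in CD36_KO and 5 in WT and was below 5 CPM in the mean.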
